A study of Mus musculus with 6 samples.

Results

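The mRNAs described here encode the proteins of the small subunit of the cytosolic ribosome, Rps2 to Rps29 and Rpsa, without pseudogenes. They were taken as a list of 31 Ensembl gene IDs defined by the protein family, with no threshold on a measured value, and 24 of the 31 had at least 1 tag with a poly(A) tail among 6469 gene IDs with such tags. The files do not pair IDs with symbols, and the gene table used here matched 0 of them, so single members are given by their versioned ID and the role of each is described only for the family.

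Poly(A) tails were measured by mTAIL-seq, which sequences the 3′ end of an mRNA together with its tail and the bases added beyond it. The cells were mouse naive CD4 T cells, sorted as TCRb+CD4+CD25-CD62LhiCD44low, in 3 libraries per genotype. WT denotes littermate controls with floxed alleles of both genes (Btg1f/f Btg2f/f), and DKO denotes Btg1f/f Btg2f/f-CD4-Cre mice, in which the Cre transgene is driven in T-lineage cells. Both groups thus carry the floxed alleles and differ by Cre as well as by the deletion, and no age or treatment is given in the labels. The design text counts 3 replicates where the growth protocol names 2 pairs of mice, so p-values cover only how libraries vary, and that variation may in part be technical. The deletion of Btg1 and Btg2 and the identity of the sorted cells could not be checked against gene names.

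The small ribosomal subunit binds the mRNA and holds the site where codons are read, and its protein mRNAs belong to the TOP class, whose 5′ ends start with a pyrimidine tract and whose translation follows nutrient and growth signals. These mRNAs are abundant and stable, and a resting T cell makes more of them when it is activated. BTG1 and BTG2 bind the CAF1 deadenylase of the CCR4-NOT complex and promote the shortening of poly(A) tails, which bears on how long an mRNA lasts.

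A tag is an entry of the deposited tables, taken as a group of reads from 1 molecule, and it was counted as tailed at 5 nt or more. Each tag marks a 3′ end, so tag counts were compared without division by transcript length. The libraries held 3943 to 24024 tailed tags linked to a gene ID, of which 257 to 1476 came from the small-subunit family. The libraries numbered 3 stood apart in both genotypes, with 32.3% (WT) and 35.3% (DKO) of mapped tags under 5 nt, against 7.95% to 9.94% in the other 4. The pooled family values, the short-tail and tag shares of the most tagged member and the fits across genes were therefore also computed in the libraries numbered 1 and 2 alone. In bulk samples such as these, fewer cells of a type and less RNA per cell cannot be told apart.

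Tags were spread very unevenly over the family. Of 5849 tailed tags from small-subunit mRNAs, which were 6.95% of all 84157, ENSMUSG00000024608.10 alone gave 3683 (63.0%). It and the other 4 members with 10 or more tailed tags in every library, ENSMUSG00000028234.6, ENSMUSG00000012848.14, ENSMUSG00000008683.16 and ENSMUSG00000030744.13, together gave 84.5%. Another 11 members were seen in all 6 libraries with 20 to 272 tags each, and 8 were seen in some libraries with 1 to 5 tags each. The remaining 7 (ENSMUSG00000028495, ENSMUSG00000061477, ENSMUSG00000061983, ENSMUSG00000037563, ENSMUSG00000061787, ENSMUSG00000090733 and ENSMUSG00000020460) had 0 of 84157 tailed tags, which allows up to 0.0356 tags per 1000 by counting error. Ribosomal protein genes have many near-identical pseudogene copies in the mouse genome, and the treatment of tags with several matches is not stated in the labels or headers, so low and zero counts of single members are uncertain.

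Pooled over their tags, small-subunit mRNAs had shorter tails than other genes, and one mRNA accounted for most of the distance. The mean tail of all family tags was 53.4, 52.2 and 44.8 nt in WT libraries 1 to 3, and 58.5, 60.3 and 51.5 nt in DKO libraries 1 to 3. Both libraries numbered 3 had the shortest means of their genotype. Within a library, the family mean minus the mean of all other gene-linked tags was -23.0, -19.9 and -4.04 nt for WT and -14.5, -19.8 and -10.1 nt for DKO. The family was shorter in 6 of 6 libraries, with an average difference of -15.2 nt ± 7.13 (SD, n = 6; exact sign-flip p = 0.031, the smallest that 6 libraries allow, and 0.0625 after Benjamini-Hochberg adjustment over 12 such differences). Other genes here include large-subunit ribosomal mRNAs, which could not be told apart by ID.

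Without ENSMUSG00000024608.10 the remaining members were shorter than other genes in 5 of 6 libraries, with an average difference of -3.60 nt (SD 5.21, exact sign-flip p = 0.125), and WT library 3 went the other way. With geometric means the difference of the whole family was -8.35 nt (exact sign-flip p = 0.094), again with WT library 3 in the other direction. ENSMUSG00000024608.10 itself was shorter than other genes in 6 of 6 libraries, with a difference of -22.0 nt ± 8.13 (SD, n = 6; exact sign-flip p = 0.031, adjusted 0.0625). It was also shorter than the pooled other members in 6 of 6 libraries, with a difference of -18.4 nt ± 3.33 (SD, n = 6; the same exact p and adjusted p).

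The 5 common members differed in tail length, and the same member was shortest and the same member longest in every library. The longest led narrowly in both libraries numbered 3, at 57.5 nt (WT) and 68.9 nt (DKO). There ENSMUSG00000008683.16 had 56.6 and 66.1 nt. Averaged over 6 libraries, the mean tail was 46.6 nt for ENSMUSG00000024608.10, 59.5 nt for ENSMUSG00000012848.14, 60.2 nt for ENSMUSG00000008683.16, 64.3 nt for ENSMUSG00000028234.6 and 76.7 nt for ENSMUSG00000030744.13. The first step in this order was 12.9 nt ± 4.61 and the last 12.4 nt ± 7.35 (SD, n = 6), each in the same direction in 6 of 6 libraries. The middle neighbours did not differ beyond their spread, with differences of 0.64 nt ± 7.31 and 4.12 nt ± 9.35 (SD, n = 6), each in 4 of 6 libraries. The order was set on these same libraries, so no test of it is given. Among the 44 gene IDs with 10 or more tailed tags in every library, whose median was 73.1 nt, these members ranked 3, 8, 9, 12 and 32 from the shortest. ENSMUSG00000024608.10 kept a rank of 3 to 5 in each library.

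**Figure D1:**
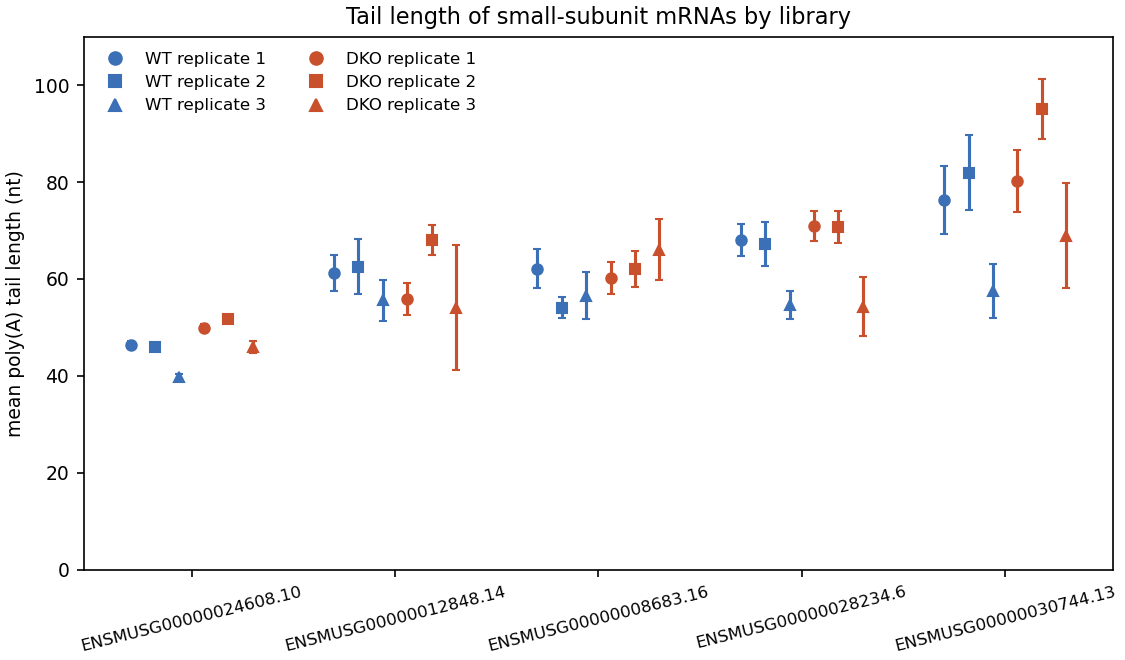
Mean poly(A) tail length in nt of the 5 small-subunit members with 10 or more tailed tags in every library, one point per library and bars of 1 SE over tags. ENSMUSG00000024608.10 sits lowest in each library and ENSMUSG00000030744.13 averages 76.7 nt, with WT and DKO points overlapping for every member.

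Tails of ENSMUSG00000024608.10 were short and close together, and a smaller share of them was under 30 nt in DKO cells. Its mean tail was 46.4, 46.0 and 39.8 nt in WT libraries and 49.9, 51.7 and 45.9 nt in DKO libraries, with a SE over tags of 0.62 to 1.29 nt. The genotypes overlapped narrowly, since DKO library 3 fell between the WT values, while each DKO library was above the WT library of its own number, by 3.49, 5.73 and 6.11 nt. The SD over its tags was 15.0 to 21.1 nt, against 31.2 to 49.0 nt for ENSMUSG00000030744.13, the longest of the common members. The WT mean was 44.1 nt ± 3.70 and the DKO mean 49.2 nt ± 2.96 (SD, n = 3 each). In a limma fit over the 44 IDs the difference was 0.16 on the log2 scale (SE 0.13, Benjamini-Hochberg adjusted p = 0.86). It was 0.0034 with each library centred on its median tail and 0.088 without WT library 3.

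The lower end of the distribution separated the genotypes more clearly than the mean did. Tags of ENSMUSG00000024608.10 under 30 nt, about the span of a poly(A)-binding protein, numbered 142, 116 and 142 in WT libraries and 53, 57 and 16 in DKO libraries. These were 17.4%, 17.3% and 24.7% of its tailed tags in WT, against 9.64%, 6.26% and 9.88% in DKO. All DKO libraries were below all WT libraries, and the exact 95% binomial intervals, which cover counting error only, ran from 14.5% to 28.4% in WT and from 4.77% to 15.5% in DKO. The interval of DKO library 3, the shallowest, was the only one of DKO to reach into the WT range.

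The short-tail share of this mRNA was 19.8% ± 4.20 in WT against 8.59% ± 2.02 in DKO (SD, n = 3 each), a DKO minus WT difference of -11.2 points, with WT 2.31-fold higher. The exact permutation p was 0.1, the smallest that 3 against 3 libraries allow. It is unadjusted among at least 15 such comparisons of the common members, since medians and parts of the family's tags were compared as well. Most of the difference lay between 20 and 29 nt, which held 15.8%, 15.4% and 22.4% of tags in WT against 8.18%, 5.60% and 8.64% in DKO. From 60 to 89 nt the order was turned within each number, at 15.0%, 14.3% and 8.68% in WT against 22.2%, 21.6% and 13.0% in DKO.

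**Figure D2:**
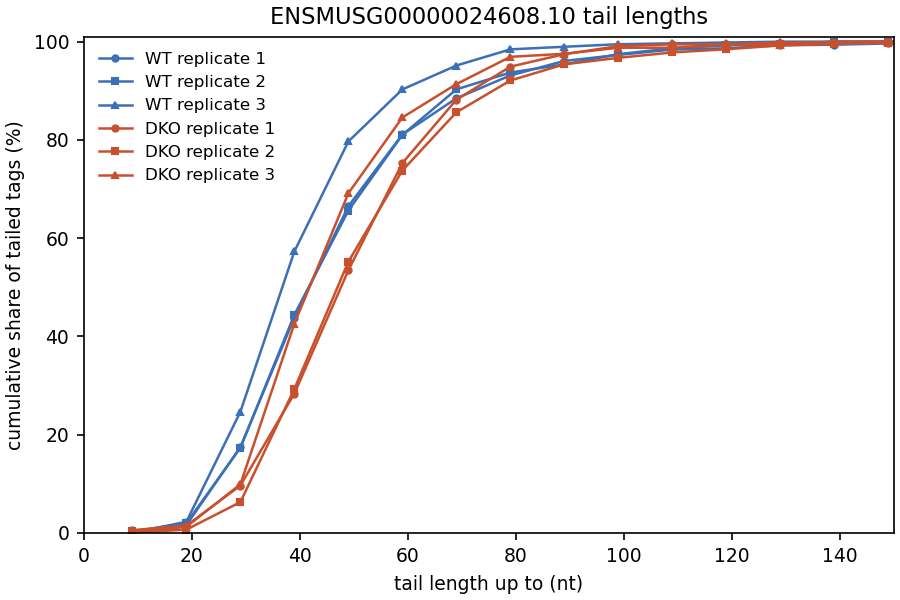
Cumulative share (%) of the tailed tags of ENSMUSG00000024608.10 up to each tail length in nt, one line per library. At 29 nt the WT lines stand at 17.3% to 24.7% and the DKO lines at 6.26% to 9.88%, and further up DKO library 3 runs with WT libraries 1 and 2.

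A lower short-tail share in every DKO library was common among well-tagged genes. It was found for 13 of the 44 gene IDs (29.5%), and none of the 44 had the opposite order. Among the 5 common small-subunit members it held for ENSMUSG00000024608.10 alone, a share near that background, although the size of the difference for this member ranked 4 of 44 from the most negative. Outside those 5, ENSMUSG00000063457.14 had 2, 3 and 8 short tags of 25, 44 and 51 in WT, against 1, 2 and 0 of 67, 78 and 7 in DKO. Its median tail was 54, 54 and 49 nt in WT against 63, 65.5 and 57 nt in DKO, without overlap, but DKO library 3 rests on 7 tags. How many gene IDs had no overlap in medians was not counted.

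Within the family, the excess of short tails in ENSMUSG00000024608.10 was larger in WT when counted in points. Its short-tail share exceeded that of the pooled other members by 11.9, 12.3 and 12.1 points in WT libraries and by 6.22, 3.96 and 0.403 points in DKO libraries. The genotypes did not overlap in this difference (exact permutation p = 0.1, the smallest possible), and the ratio of the shares was not compared. The other members by themselves overlapped between genotypes, at 5.56%, 5.07% and 12.5% in WT against 3.41%, 2.30% and 9.47% in DKO. Their means were 7.72% ± 4.18 in WT and 5.06% ± 3.86 in DKO (SD, n = 3 each). They had fewer short tails than other genes in 6 of 6 libraries, with an average difference of -6.73 points (exact sign-flip p = 0.031, adjusted 0.0625). Set against other genes, ENSMUSG00000024608.10 gave overlapping genotypes, with differences of 7.95, 6.69 and -1.31 points in WT against 0.816, -1.74 and -5.97 points in DKO (exact permutation p = 0.2). Other genes themselves had 9.47%, 10.7% and 26.0% of tags under 30 nt in WT against 8.82%, 7.996% and 15.8% in DKO, highest in the libraries numbered 3, and the part of that library effect in the values of this mRNA was not tested; in numbers 1 and 2 alone its DKO minus WT difference was -9.43 points.

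**Figure D3:**
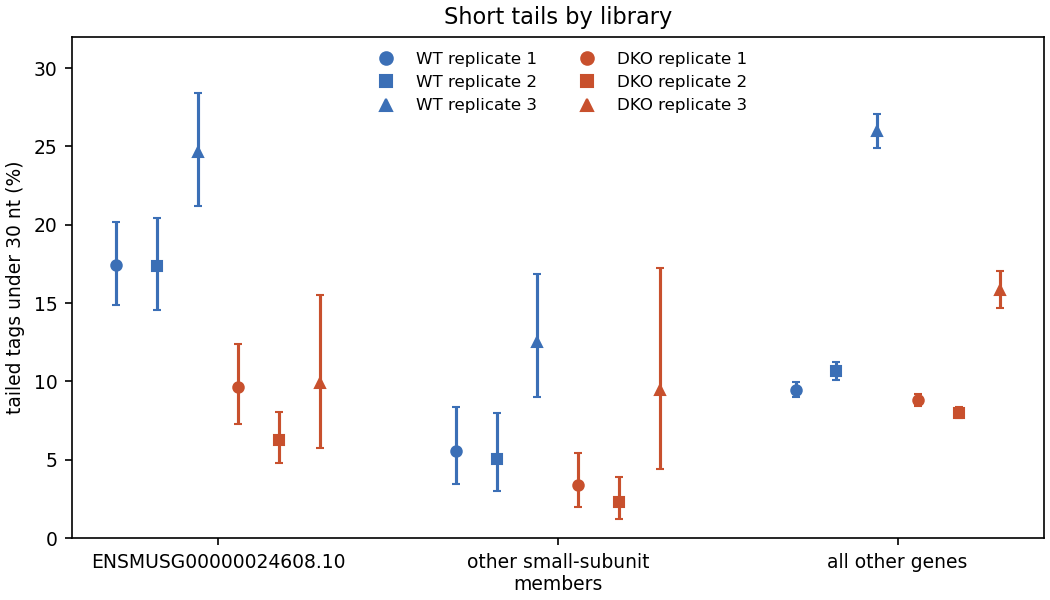
Share (%) of tailed tags under 30 nt in each library for ENSMUSG00000024608.10, the other small-subunit members pooled and all other genes, with exact 95% binomial intervals. The 3 WT values of ENSMUSG00000024608.10 (17.3% to 24.7%) lie above its 3 DKO values (6.26% to 9.88%), while the other 2 classes overlap between genotypes.

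The remaining common members had tails that overlapped between genotypes. ENSMUSG00000012848.14 averaged 61.2, 62.5 and 55.6 nt in WT against 55.9, 68.0 and 54.1 nt in DKO, with no shared direction. ENSMUSG00000028234.6 averaged 68.1, 67.1 and 54.6 nt in WT against 71.0, 70.7 and 54.3 nt in DKO, where both libraries numbered 3 were about equally low. ENSMUSG00000030744.13 averaged 76.3, 81.9 and 57.5 nt in WT against 80.2, 95.1 and 68.9 nt in DKO, higher in DKO within each number. For ENSMUSG00000008683.16 the means were 62.1, 54.1 and 56.6 nt in WT against 60.2, 62.0 and 66.1 nt in DKO, which overlapped. Its medians of 49, 53 and 50 nt in WT lay below those of 56.5, 53.5 and 60 nt in DKO, though narrowly at 53 against 53.5 nt. Median tails were on average higher in DKO for 40 of 44 gene IDs. How many of these IDs had no overlap in medians was not counted.

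No member passed the test of tail length. The limma fit, with Benjamini-Hochberg adjustment and a threshold of 0.05, called 0 of 44 gene IDs (0%) and 0 of the 5 members. Without adjustment 2 of the 44 IDs were under 0.05. The mean tail was higher in DKO for 4 of the 5 members and for 41 of the 44 IDs, with medians of 0.13 and 0.10 on the log2 scale. These counts turned on single libraries: without WT library 3 they were 3 of 5 members and 18 of 46 IDs, and without DKO library 2 they were 3 of 5 and 28 of 44. In numbers 1 and 2 alone they were 6 of 7 members and 74 of 122 IDs. With each library centred on its median tail, 2 of the 5 members and 11 of the 44 IDs were higher in DKO. Every DKO library was above every WT library for 3 of 44 IDs (6.82%), and for 0 of 5 members. Over the family as a whole the mean was 50.1 nt ± 4.66 in WT against 56.8 nt ± 4.68 in DKO (SD, n = 3 each), and with the 5 members weighted equally it was 59.3 nt ± 5.64 and 63.6 nt ± 5.82, overlapping in both cases. The family minus other genes was -15.6 nt ± 10.1 in WT against -14.8 nt ± 4.85 in DKO (SD, n = 3 each), which overlapped.

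Small-subunit mRNAs made up a smaller part of the tags in every DKO library than in any WT library, and this rested on the most tagged member. The family was 7.04%, 8.82% and 12.1% of tailed gene-linked tags in WT libraries and 5.07%, 6.14% and 6.52% in DKO libraries. Without ENSMUSG00000024608.10 the other members were 2.23%, 2.94% and 4.11% in WT against 2.41%, 2.35% and 2.41% in DKO, which overlapped. ENSMUSG00000024608.10 had 48.1, 58.8 and 80.3 tags per 1000 tailed tags in WT against 26.6, 37.9 and 41.1 in DKO. Its genotypes did not overlap, and within each genotype library 1 was lowest and library 3 highest. The means were 62.4 ± 16.4 and 35.2 ± 7.61 (SD, n = 3 each), 1.77-fold lower in DKO (exact permutation p = 0.1, the smallest possible). Its part of the family's own tags was 68.3%, 66.6% and 66.1% in WT against 52.5%, 61.7% and 63.0% in DKO, also without overlap.

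Another 2 common members were lower in every DKO library. ENSMUSG00000008683.16 had 4.42, 4.65 and 4.88 tags per 1000 in WT against 2.23, 3.08 and 3.04 in DKO, and ENSMUSG00000028234.6 had 5.90, 6.50 and 7.66 in WT against 4.64, 4.08 and 3.30 in DKO. Each was 1.67-fold lower in DKO (exact permutation p = 0.1 for each, the smallest possible). ENSMUSG00000012848.14, at 2.77, 4.57 and 4.60 in WT against 3.82, 3.75 and 2.79 in DKO, overlapped. ENSMUSG00000030744.13, at 2.95, 3.07 and 4.46 in WT against 1.50, 2.08 and 4.31 in DKO, overlapped as well. Thus 3 of the 5 members were without overlap in this direction, against 5 of all 44 IDs (11.4%), those 3 included. TMM factors ran from 0.869 to 0.966 in WT libraries and from 0.968 to 1.17 in DKO libraries. Scaling by them could therefore not undo this order. The opposite order was found for 2 of 44 IDs (4.55%) and for 0 of 5 members.

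Several sparsely tagged members also had no overlap in a share. As parts of the family's tags, ENSMUSG00000032518.5 had 1.84%, 2.29% and 1.84% in WT against 4.01%, 2.37% and 3.11% in DKO, and ENSMUSG00000052146.15 had 0.754%, 1.195% and 1.26% against 2.004%, 1.42% and 1.95%. ENSMUSG00000025362.5 had 0.503%, 0.697% and 0.804% against 0.859%, 0.881% and 1.17%. All 3 were higher in DKO in this measure, where the part of ENSMUSG00000024608.10 was lower, and all 3 overlapped in tags per 1000. They are among the 11 sparsely tagged members seen in all libraries. The members other than ENSMUSG00000024608.10, pooled, rose likewise, from 33.0% in WT to 40.9% in DKO. Parts of a whole are tied, so these higher parts are not a separate result. ENSMUSG00000028081.6 had 0 tags in each WT library and 2, 1 and 1 in DKO, and ENSMUSG00000044533.15 had 1 tag in every library but DKO library 3, which had 0, numbers too small to compare.

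**Figure D4:**
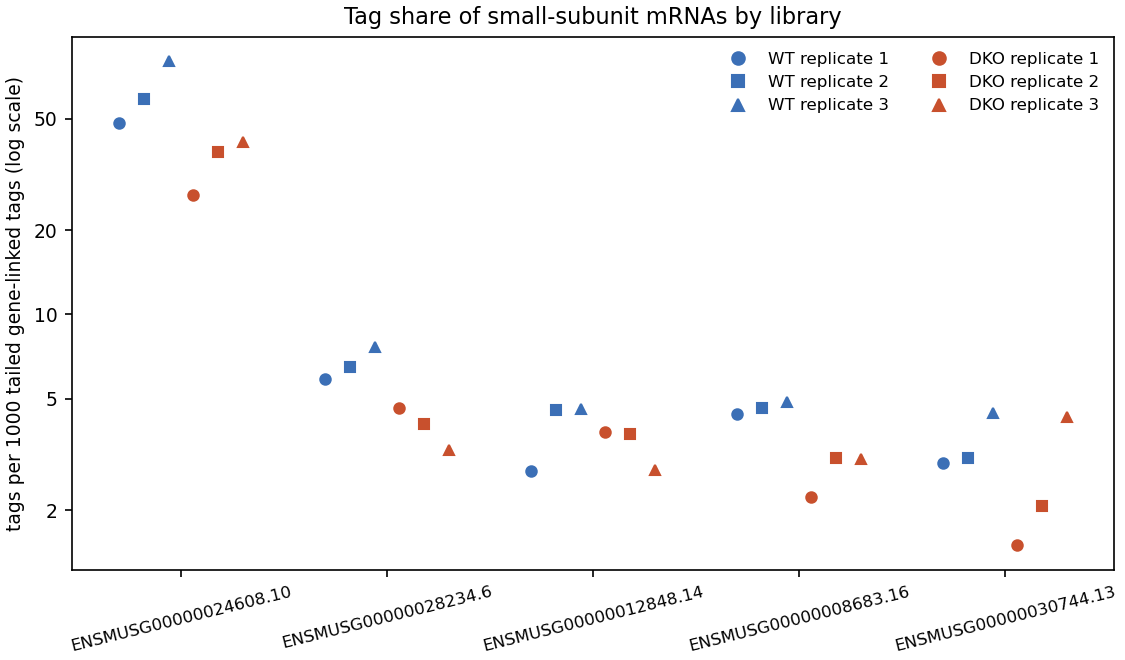
Tags per 1000 tailed gene-linked tags (log scale) of the 5 common small-subunit members, one point per library. ENSMUSG00000024608.10, ENSMUSG00000028234.6 and ENSMUSG00000008683.16 have all 3 DKO points below all 3 WT points, and the other 2 members overlap.

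These differences in tag number did not pass the test across genes in all 6 libraries. The edgeR quasi-likelihood test with Benjamini-Hochberg adjustment called 0 of 170 gene IDs (0%). Without adjustment 13 IDs were under 0.05, and DESeq2 called 0 with 8 under 0.05 unadjusted. For ENSMUSG00000024608.10 the log2 fold change was -0.86 (edgeR adjusted p = 0.46), with a SE of 0.43 derived from the test statistic. It was -0.80 for ENSMUSG00000008683.16 and -0.77 for ENSMUSG00000028234.6, with the same adjusted p. With the library number as a block, 3 of 170 IDs (1.76%) passed, none of them a member. Of the 9 members of 31 that passed the filter on low counts, 8 were lower in DKO, beside 92 of all 170 IDs. The median log2 fold change was -0.55 for these members, beside -0.05 over all 170 IDs. That median was -0.25 with the block (7 lower, 2 higher). With 1 library left out, other sets of members were tested. The median was then -0.62, -0.32 and -0.039 without WT libraries 1, 2 and 3. It was -0.18, -0.26 and -0.41 without DKO libraries 1, 2 and 3. With library totals in place of TMM scaling, 5 of the 9 members were lower and 4 higher, with a median of -0.25, beside 0.24 over all IDs.

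In the libraries numbered 1 and 2 alone, 2 members passed and members lay on both sides of 0. ENSMUSG00000024608.10 had a log2 fold change of -0.90 (edgeR adjusted p = 0.0037) and ENSMUSG00000008683.16 one of -0.94 (edgeR adjusted p = 0.023). In that fit 30 of 241 IDs (12.4%) passed, 23 of them lower in DKO, so 2 of the 12 members tested is a share near the background. Of those 12 members 7 were lower and 5 higher, with a median log2 fold change of -0.076 beside 0.059 over all IDs. The largest positive values were 1.28 for ENSMUSG00000040952.16 (edgeR adjusted p = 0.093) and 0.86 for ENSMUSG00000039001.12 (edgeR adjusted p = 0.15). Leaving out WT library 3 only, 8 IDs passed and no member was among them.

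Uridines at the tail end were rare in small-subunit mRNAs, and their share was higher among short tails. Of the 5849 tags, 155 carried U among the added bases, 128 of them as a single U and 19 as a run of 2 to 4. The examples below were chosen to show where the U stands: lower case marks the tail as read and capitals mark added bases, with U written as T. For each of 5 libraries 1 tag is shown, each linked to one of 3 common members. DKO library 3 had none of this form among them. No example is from ENSMUSG00000024608.10, and none has a tail under 30 nt. Where the tail was called longer than the letters listed, as in the first 2, the letters are those listed in the file.
ENSMUSG00000008683.16, WT library 1, tail of 30 nt: aaaaaaaaaaaaaaaaaTTT
ENSMUSG00000028234.6, WT library 2, tail of 45 nt: aaaaaaaaaaaaaaaaaaaaaaaaT
ENSMUSG00000028234.6, WT library 3, tail of 48 nt: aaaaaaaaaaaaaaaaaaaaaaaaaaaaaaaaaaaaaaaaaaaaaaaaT
ENSMUSG00000012848.14, DKO library 1, tail of 32 nt: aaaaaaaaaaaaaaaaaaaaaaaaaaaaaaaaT
ENSMUSG00000012848.14, DKO library 2, tail of 34 nt: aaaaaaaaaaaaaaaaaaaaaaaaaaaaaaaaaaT

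The share of family tags with U was 2.35%, 3.09% and 2.99% in WT against 2.58%, 2.17% and 4.28% in DKO, which overlapped. Of the 155 tags with U, 44 had a tail under 30 nt and 111 a longer one. Below 30 nt the share was 6.36% ± 2.56 in WT against 11.4% ± 7.95 in DKO, and from 30 nt it was 2.22% ± 0.50 and 2.23% ± 0.31 (SD, n = 3 each). Other genes had 9.91% ± 0.679 and 9.12% ± 0.238 on short tails, and 1.59% ± 0.0757 and 1.63% ± 0.154 on longer ones. Short tails had the higher share in 6 of 6 libraries, but narrowly in WT library 3, at 3.91% against 2.75%, and the difference was not tested. Of the 44 short tags with U, 41 came from ENSMUSG00000024608.10, and the other members had 0 in 4 of 6 libraries. For ENSMUSG00000024608.10 the U share over all its tails was above that of other genes in 6 of 6 libraries, by 0.935 points on average (SD 1.32, exact sign-flip p = 0.031, adjusted 0.0625). DKO library 3, with 10 of 162 tags, gave the widest gap of 3.54 points. Tail lengths were not matched in that comparison. Under 30 nt its U share was 7.04%, 8.62% and 4.93% in WT and 13.2%, 5.26% and 25% in DKO. Other genes had 10.6%, 9.31% and 9.77% in WT and 9.07%, 9.37% and 8.90% in DKO. At 30 nt to below 60 nt its share was 2.31%, 2.11% and 3.97% in WT and 2.49%, 2.76% and 4.96% in DKO. Other genes there had 2.15%, 2.05% and 2.06% in WT and 2.55%, 2.30% and 2.55% in DKO.

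Family tags without a tail, under 5 nt, numbered 8, 4 and 34 in WT against 3, 4 and 7 in DKO. The 34 of WT library 3 included 32 from ENSMUSG00000030744.13, and 29 family tags of that library were linked to more than 1 gene ID, against 0 to 3 in each other library.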

How the data were processed

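Per library, the authors deposited tables of tags, mapped tags with a tail length in nt, links from tags to gene IDs, and values per ID. The authors' tag counts per ID, named so per the file headers, are whole numbers and not normalized. The tag tables have no header: their tail column was recognised because it gives the deposited tag counts, and a whole-number column was taken as reads per tag. The submitters' processing notes name GSNAP, bedtools, mm10 and GRCm38. Tail caller and annotation release: not given in the sources used here.

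Tailed tags (5 nt or more) were joined to IDs by tag. Here, a tag counted once for pooled values and under each of its IDs for single genes. Single values were compared with exact permutation tests over libraries, and classes within libraries with exact sign-flip tests. Both were two-sided and went through all arrangements in Python 3.11.15, and SciPy 1.17.1 gave the binomial intervals. No p is given for a pooled genotype difference of the family. Log2 mean tails of 44 IDs with 10 or more tags in every library were fitted with limma 3.58.1, and counts of 170 IDs with edgeR 4.0.16 (TMM, filterByExpr), with DESeq2 1.42.0 as an alternative. Scripts were tested on simulated data.

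The family was chosen as a subject, and its lists and tests were set, with earlier results of these data known. All members could be named, with values per library for those with 10 or more tags in every library and for any member whose genotypes did not overlap in tail or share of tags. Same-numbered libraries deviated together, so the numbers were taken as pairs from the data. Their r was 0.25, 0.40 and 0.52 over 44 log2 tails, and 0.14, 0.21 and 0.38 over 170 log2 counts. For counts, numbers 1 and 2 correlated more when crossed (WT 1 with DKO 2, 0.29, and WT 2 with DKO 1, 0.38). For tails, WT 1 with DKO 2 had 0.33. The pairing of numbers 1 and 2 is thus uncertain, and the labels speak only of pairs of mice. The lists that need gene symbols (large subunit, other TOP mRNAs, cell markers) and 3′ end positions were not analysed here.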

Additional observations from a re-analysis of the deposited data

How the results depend on the processing

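The short-tail and tag-share differences of ENSMUSG00000024608.10 kept their direction and stayed without overlap under every change of threshold, weighting or tags tried. Single-ID tags left its short-tail shares unchanged. Leaving out libraries could not turn or overlap either difference, since neither overlapped in the full set of libraries. Under 20 nt few tags remain, and under 40 nt the lowest WT share was 43.8% against a highest DKO share of 42.6%. Set against other genes of the same library, its short-tail shares overlapped between genotypes. With reads in place of tags its short tails ran from 27.1% to 29.6% in WT, against 8.59% to 14.6% in DKO. The gap between family and other genes was -8.35 nt (exact p = 0.094) with geometric means, -3.60 without the most tagged member (exact p = 0.125) and -19.3 in numbers 1 and 2 alone (exact p = 0.125, the smallest 4 libraries allow); the genotype difference in that gap turned to -0.61 without the most tagged member. The untailed difference turned to 0.142 points with single-ID tags, and the U difference to -0.758 without the most tagged member and -0.345 in numbers 1 and 2. The edgeR count was 3 with the replicate block, 30 in numbers 1 and 2, and 0 to 8 with 1 library left out; the block changed no other call, and with 3 pairs the smallest possible sign-flip p is 0.25. Log2 values near 0 turned sign for tags of ENSMUSG00000012848.14 (0.066, library totals) and its tail (0.031, weights by tags), and for the centred tails of ENSMUSG00000008683.16 (-0.031) and ENSMUSG00000028234.6 (-0.11). With 1 library left out, ranges were -17.5 to -13.7 nt for the gap to other genes (exact p = 0.0625, the smallest 5 libraries allow), -2.87 to 6.59 nt for its genotype difference, 3.98 to 9.30 nt for the family mean, 1.03 to 9.16 nt for equal weights, -10.1 to -6.41 points for short tails, -4.57 to -2.02 points for the share of tags, -0.434 to 0.622 points for U, -1.33 to 0.538 points for untailed tags and 0 to 0 limma calls; single tails ranged from -0.12 to 0.047 (ENSMUSG00000012848.14) and -0.061 to 0.17 (ENSMUSG00000028234.6). The comparison with large-subunit mRNAs and the 3′ end positions were not run. DKO library 3, with 257 family tags, limits every genotype comparison; the causes of these changes were not tested.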
